A study of Mus musculus with 2 samples.

Results

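Cell cycle and DNA replication genes were examined in RNA sequencing data of a primary culture grown from mouse penis tissue. The study names its cells mouse cavernous endothelial cells (MCECs). The set holds 38 gene symbols, listed by name for their textbook roles, out of 23183 symbols in the data. The listing was made with earlier results of these data known. Of the 38, 17 act at the G1/S transition and in DNA replication and 21 act in G2 and mitosis (G2/M). RNA came from 1 culture given HBS, the buffer vehicle, in high glucose (HG+HBS), and from 1 culture given PC-NVs in high glucose (HG+PC-NVs). The PC-NVs are vesicle mimics, obtained by pushing cultured pericytes of the mouse cavernosum through membranes. By the study's methods, high glucose was 30 mM, PC-NVs were used at 1 µg/mL, and RNA was taken 72 hours into the glucose condition, 24 hours of them with the vesicles present. The sample labels give 5 days of glucose instead. The legend of the study's sequencing figure gives a single duration for the glucose and the vesicles together. For high-glucose cultures in general, the methods describe 24 hours of serum starvation before the glucose. The methods' section on RNA sequencing does not restate that step. The study's animals were male C57BL/6J mice, 8 weeks old, and how many gave cells to each culture is not given in the sources used here. Proliferation was among the responses to PC-NVs that the study asked about.

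A dividing cell passes through ordered phases, and many of its cell cycle genes are transcribed in waves. In G1, D cyclins and then E cyclins activate kinases that free the E2F factors from the retinoblastoma protein, and E2F turns on the genes that license replication origins, copy DNA and make deoxynucleotides. Later, the MuvB complex, together with B-Myb and Foxm1, drives the genes of mitotic entry, spindle assembly and chromosome separation. In resting cells the DREAM complex keeps both waves low. Messenger RNAs of both waves are therefore widely used to read how many cells of a culture are cycling. In a bulk sample, fewer cycling cells and less RNA per cycling cell cannot be told apart.

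Some elements tied to these waves were more frequent in promoters of the members than in all promoters. In a window from 250 bases before to 50 after each annotated start (RefSeq, GRCm38.p6), 3 kinds of element were searched on both strands. These were the CHR element bound by MuvB (TTTGAA or TTCGAA), the CCAAT box bound by NF-Y (CCAAT), and an E2F element (TTTCCCGC, TTTCGCGC, TTTGCCGC or TTTGGCGC). Overlapping matches each count. Promoters were matched for 16 of the 21 G2/M members and 13 of the 17 G1/S members. Ccna2, Foxm1, Aurkb, Kif20a, Tpx2, Ccnd1, Ccne2, Mcm4 and Gins2 had none matched. A CHR element was found in 13 of 16 G2/M promoters (81.3%), against 2 of 14 G1/S promoters (14.3%) and 19.2% of all 32851 promoters. A CCAAT box was found in 15 of 16 G2/M promoters and 9 of 14 G1/S promoters, against 37.4% of all promoters. The order was the other way for E2F elements, with 6 of 14 G1/S promoters (42.9%), 1 of 16 G2/M promoters, that of Cdk1, and 2.26% of all promoters. A match is a run of letters and does not show that a factor binds there. Only these exact letters were counted, so the lack of a match does not show that no factor binds.

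The stretches below end at or before the start of transcription and run 5′ to 3′ on the strand of the gene. For the G2/M class they are the 4 promoters with both a CHR element and a CCAAT box before the start whose genes had the lowest ratios between the libraries, and capitals mark CHR elements and CCAAT boxes on either strand. They lie at chr4:118437344-118437411, chr7:135716457-135716582, chr2:164769686-164769920 and chr9:70421556-70421736 (GRCm38.p6), on the plus strand for Ube2c and the minus strand for the others.
Cdc20: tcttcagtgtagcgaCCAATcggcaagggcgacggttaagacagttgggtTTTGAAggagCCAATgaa
Mki67: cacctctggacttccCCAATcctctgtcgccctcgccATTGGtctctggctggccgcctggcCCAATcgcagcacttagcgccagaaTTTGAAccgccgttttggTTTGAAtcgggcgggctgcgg
Ube2c: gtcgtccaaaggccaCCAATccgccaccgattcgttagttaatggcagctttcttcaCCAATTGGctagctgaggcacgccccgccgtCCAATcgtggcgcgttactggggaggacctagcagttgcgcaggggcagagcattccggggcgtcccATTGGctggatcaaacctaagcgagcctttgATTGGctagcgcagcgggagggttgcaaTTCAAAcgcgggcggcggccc
Ccnb2: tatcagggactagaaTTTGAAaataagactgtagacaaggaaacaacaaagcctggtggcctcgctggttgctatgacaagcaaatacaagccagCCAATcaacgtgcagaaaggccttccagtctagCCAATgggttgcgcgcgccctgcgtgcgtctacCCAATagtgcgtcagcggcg

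For the G1/S class the stretches are from the 4 promoters that held an E2F element before the start, and capitals mark E2F elements on either strand. They lie at chr11:98907998-98908035, chr8:75109341-75109382, chr5:138172026-138172063 and chr1:128359730-128359830 (GRCm38.p6), on the plus strand for Cdc6 and Mcm5 and the minus strand for Mcm7 and Mcm6. In Mcm5 and Mcm6, a pair of E2F matches on opposite strands overlaps and appears as a single run of capitals.
Cdc6: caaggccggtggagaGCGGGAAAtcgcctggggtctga
Mcm5: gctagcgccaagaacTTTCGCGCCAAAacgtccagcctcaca
Mcm7: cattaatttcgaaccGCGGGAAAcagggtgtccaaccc
Mcm6: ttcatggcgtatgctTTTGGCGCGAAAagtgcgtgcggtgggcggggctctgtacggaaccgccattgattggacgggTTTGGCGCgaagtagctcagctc

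**Figure D1:**
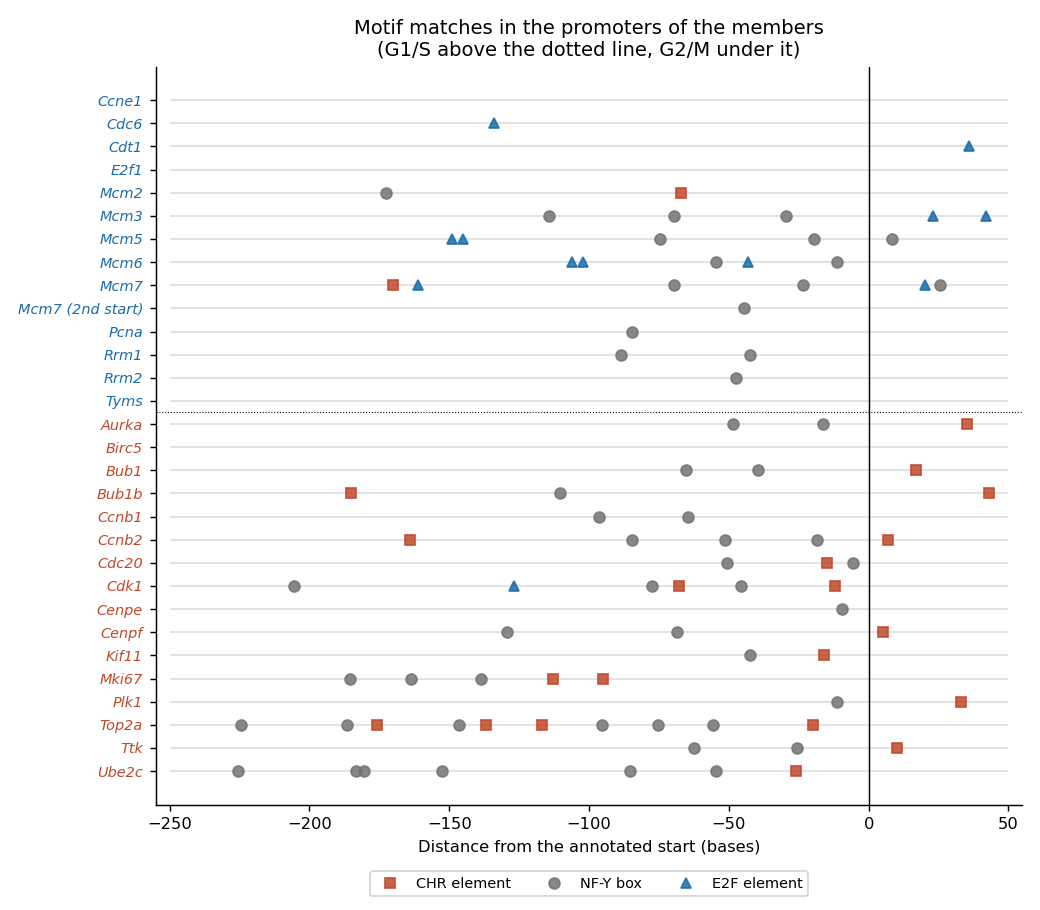
Positions of the 3 kinds of element in the matched promoters, by distance in bases from the annotated start (x axis); each row is a promoter, with G1/S members above and G2/M members under the dotted line. CHR elements (squares) appear in 13 of the 16 G2/M promoters and E2F elements (triangles) in 6 of the 14 G1/S promoters.

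Of the 20 CHR matches of the G2/M promoters, 12 lay between 60 bases before and 49 bases after the start. The others lay further before it, as far as position -188. Positions were not computed for all promoters. The 11 E2F matches of the G1/S promoters lay at positions -165 to 38 from the start. Within the G2/M class, the 13 genes with a CHR element had a median log2 ratio between the libraries of -0.13, and the 3 without, Birc5, Ccnb1 and Cenpe, had one of -0.07. Within the G1/S class, the 6 genes with an E2F element had a median of 0.08 and the 7 without had one of 0.09. In both classes, the medians with and without the element were less than 0.1 apart.

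The data are 1 library per culture, so no difference could be set against the spread between cultures, and no p-value was computed. Levels are normalized FPKM (fragments scaled to transcript length and library size), summed over the transcript rows of a symbol, so that they can be compared between genes. The libraries hold roughly 13300000 and 11600000 fragments, estimated from the smallest steps in the values. The HG+HBS and HG+PC-NVs libraries are called "with HBS" and "with PC-NVs" from here on. A log2 ratio is log2(FPKM + 1) with PC-NVs minus that with HBS, and a gene was called when it passed a 1.5-fold difference on that scale. Ratios were read for the 11785 genes with a mean log2(FPKM + 1) of at least 1, which include all 38 members. Of the 15 endothelial markers, 9 were under 1 FPKM in both libraries, namely Kdr, Tek, Tie1, Vwf, Erg, Emcn, Cldn5, Robo4 and Nos3. Pecam1 was at 1.05 and 0.938 FPKM, Flt1 at 1.19 and 0.835 and Cdh5 at 5.05 and 5.73, while Egfl7, Esam and Eng were between 8.57 and 29.0 FPKM. The summed endothelial markers were 65.9 FPKM with HBS and 50.9 with PC-NVs. The markers of other cell types, of which those past 1.5-fold are named after their values were seen, went both ways within each list. The 10 fibroblast markers summed to 2206 FPKM with HBS and 2492 with PC-NVs, but 9 of them had a log2 ratio below 0 and the median was -0.28. The higher sum came from Dcn, called higher at 623 and 1283 FPKM, while Thy1 was at 549 and 412 FPKM and Col1a2 and Fap were called lower. The 12 pericyte and smooth muscle markers summed to 122 and 96.0 FPKM, with Pdgfrb at 38.4 and 33.7 FPKM. Acta2 (27.6 and 8.02 FPKM), Tagln and Cspg4 were called lower, and Kcnj8 (7.98 and 20.4 FPKM) and Rgs5 (1.69 and 7.23 FPKM) higher. The 10 myeloid markers summed to 383 and 619 FPKM, with 6 above and 4 below 0 and a median of 0.07. Cd14 (36.6 and 252 FPKM), Adgre1 (7.44 and 42.5 FPKM) and Fcer1g were called higher, while Lyz2 was at 212 and 193 FPKM. The endothelial sum was below the sum of each of these other lists in both libraries. The part of other cell types in the results below was not tested.

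The cell cycle members were expressed in both libraries. Their levels with HBS ran from 1.26 FPKM for Cdc6 to 143 FPKM for Ccnd1, with a median of 11.2 FPKM, and with PC-NVs the median was 10.6 FPKM. Among the genes with a ratio, the members' mean levels lay between the 6.25th and the 94.4th percentile. G1/S members were the more abundant class, with a median of 16.9 FPKM with HBS, against 7.95 FPKM for G2/M members. Median transcript lengths were alike, at 3163 bases for G1/S and 3146 for G2/M.

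**Figure D2:**
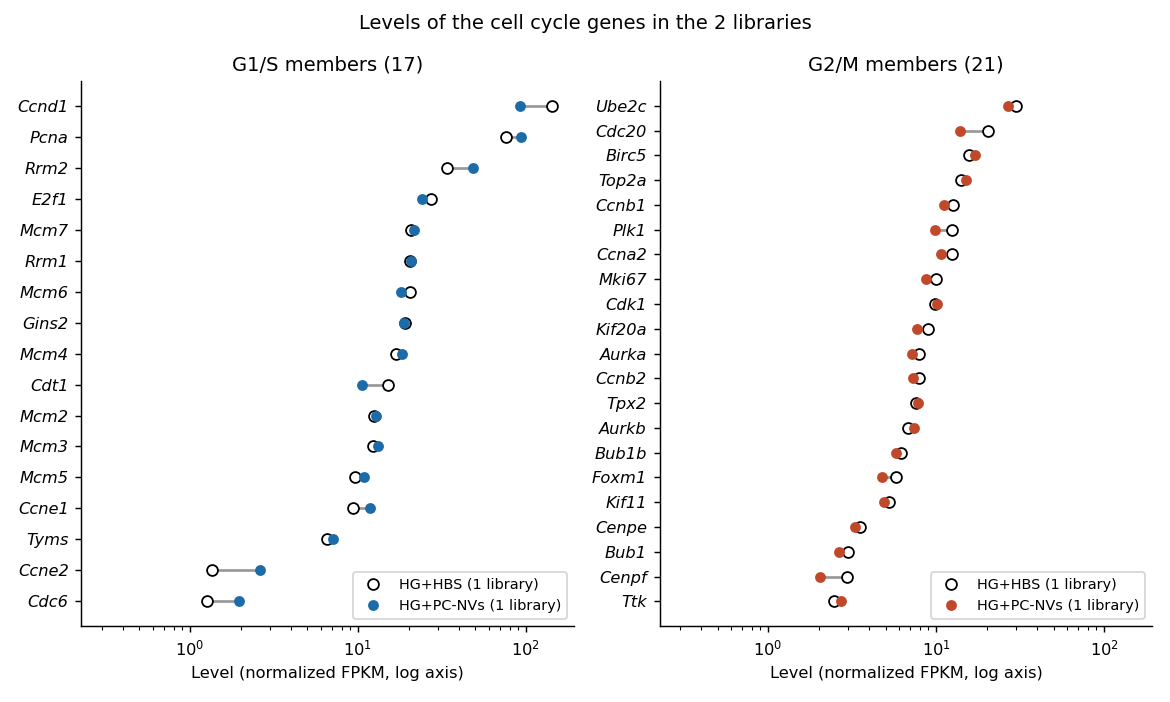
Level of each member (x axis, normalized FPKM, log axis) in the HG+HBS (open circles) and HG+PC-NVs (filled circles) libraries for the 17 G1/S and the 21 G2/M members. Most pairs nearly coincide, and Ccnd1 (143 and 91.6 FPKM), Ccne2, Cdc6, Rrm2, Cdt1, Cdc20 and Cenpf show the widest gaps.

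Between the libraries, the members differed little, and the classes leaned in opposite directions. Of the 17 G1/S members, 12 had a log2 ratio above 0 and 5 below, with a median of 0.09. Of the 21 G2/M members, 6 were above 0 and 15 below, with a median of -0.13. Over all genes with a ratio, 51.6% were below 0 and the median was -0.01. The medians of the classes were thus 0.22 apart on the log2 scale, and both lay within the middle 50% of all genes, which ran from -0.17 to 0.16. Among the 38 members, 1 was called higher with PC-NVs, Ccne2, and 1 was called lower, Ccnd1. Over all genes, 5.33% were called higher and 3.57% lower, so the members' shares were no larger than the background. The median size of the log2 ratio, sign aside, was 0.14 for the members and 0.16 for all genes.

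Intervals from the estimated fragments tell which of these small ratios are wider than counting error. The 95% Wilson interval of the FPKM ratio, which has no pseudocount and covers counting error only, lay wholly under 1 for 6 G2/M members (Ccna2, Foxm1, Plk1, Cdc20, Cenpf and Mki67) and wholly above 1 for 0 of the 21. In the G1/S class it lay above 1 for 5 (Ccne1, Ccne2, Cdc6, Pcna and Rrm2) and under 1 for 4 (Ccnd1, E2f1, Cdt1 and Mcm6). The other 23 members could not be told from equal levels at this depth. These intervals compare the libraries and say nothing of how much cultures vary. They were computed for the members only, so their counts cannot be set against a share over all genes. The estimated fragments behind a member numbered between 54.1 and 7119 with HBS and between 82.0 and 3986 with PC-NVs.

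**Figure D3:**
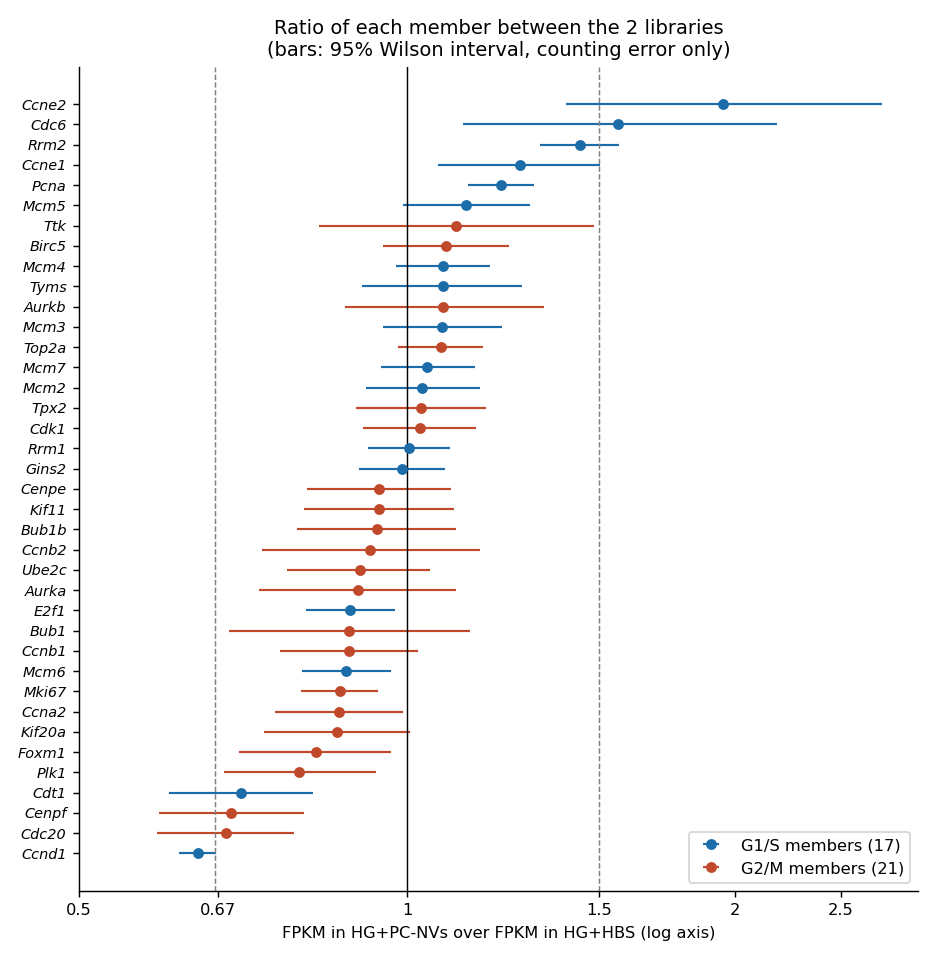
FPKM with PC-NVs over FPKM with HBS for each of the 38 members (x axis, log axis), sorted, with 95% Wilson intervals for counting error as bars; the solid line marks equal levels and the dashed lines a 1.5-fold difference. G1/S members (blue) hold both ends of the order, from Ccnd1 at 0.642 to Ccne2 at 1.95, and of the 21 G2/M members (red) 0 have an interval above 1. Intervals were computed for the members only.

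Among the G1 cyclins, Ccnd1 was lower and the E cyclins higher with PC-NVs. Ccnd1 encodes cyclin D1, the partner of Cdk4 and Cdk6 that answers growth signals, and spans chr7:144929931-144939925 (GRCm38, GENCODE M21, minus strand). Its level was 143 FPKM with HBS and 91.6 FPKM with PC-NVs, a log2 ratio of -0.63 and an FPKM ratio of 0.642 (interval 0.618 to 0.667, from about 7119 and 3986 fragments). It has the most fragments of any member. The other D cyclins, which were not members, gave values on the same side. Ccnd2 was at 174 and 125 FPKM, a log2 ratio of -0.47, and Ccnd3 at 143 and 109 FPKM, a log2 ratio of -0.39. Neither passed 1.5-fold.

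The E cyclins activate Cdk2 at the entry to S phase. Ccne1 was at 9.33 FPKM with HBS and 11.8 FPKM with PC-NVs, an FPKM ratio of 1.27 (interval 1.07 to 1.503). Ccne2, at chr4:11191351-11204779 on the plus strand, was at 1.35 and 2.63 FPKM, a log2 ratio of 0.63 and an FPKM ratio of 1.95 (interval 1.40 to 2.73). The call of Ccne2 rests on only about 54.1 and 91.9 fragments, and its symbol has 3 transcript rows. The most abundant row alone, at 1.35 and 1.77 FPKM, gave a log2 ratio of 0.24 and was not called. The other rows were almost empty with HBS, at 0.000519 and 0.000343 FPKM, and at 0.597 and 0.259 FPKM with PC-NVs. After centring by transcript length and GC content, Ccne2 was not called either. Cdk2 itself was at 6.66 and 9.23 FPKM, a log2 ratio of 0.42. E2f1, the transcription factor that drives much of the S-phase program, was at 27.2 and 24.1 FPKM, an FPKM ratio of 0.886 (interval 0.807 to 0.974).

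Origin licensing loads the Mcm2 to Mcm7 helicase on DNA in G1, with Cdc6 and Cdt1 as loaders. The helicase subunits stayed close together and close to equal levels. Mcm2 was at 12.5 FPKM with HBS and 12.9 FPKM with PC-NVs, Mcm3 at 12.3 and 13.2, and Mcm4 at 16.9 and 18.3. Mcm5 was at 9.58 and 10.8 FPKM, Mcm6 at 20.4 and 17.9, and Mcm7 at 20.6 and 21.5. Thus 5 of the 6 subunits had a log2 ratio above 0, from 0.04 to 0.16, and Mcm6 had one of -0.18, with an FPKM ratio of 0.879 (interval 0.800 to 0.967).

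The loaders differed from the helicase and from each other. Cdc6 was at 1.26 FPKM with HBS and 1.96 FPKM with PC-NVs, an FPKM ratio of 1.56 (interval 1.13 to 2.18) on about 60.2 and 82.0 fragments. Its log2 ratio was 0.39, short of the threshold on the scale with a pseudocount of 1. Cdt1, which is destroyed once S phase begins, was at 15.05 and 10.6 FPKM, an FPKM ratio of 0.703 (interval 0.605 to 0.819), the widest lower value of the G1/S class after Ccnd1.

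At the replication fork, Gins2, a subunit of the GINS complex that joins the Mcm helicase, was at 19.0 FPKM with HBS and 18.8 FPKM with PC-NVs. Pcna, the sliding clamp of the DNA polymerases, was at 76.3 and 93.1 FPKM, an FPKM ratio of 1.22 (interval 1.14 to 1.31). The enzymes of deoxynucleotide synthesis had unequal values. Rrm2, the small subunit of ribonucleotide reductase, was at 33.7 and 48.5 FPKM, an FPKM ratio of 1.44 (interval 1.32 to 1.56) and a log2 ratio of 0.51, under the threshold. Rrm1, the large subunit, was at 20.5 and 20.6 FPKM. Tyms, thymidylate synthase, was at 6.57 and 7.09 FPKM. The subunits of ribonucleotide reductase thus had unequal ratios.

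The drivers of mitotic entry were near equal or slightly lower with PC-NVs. Cdk1, the kinase that starts mitosis, was at 9.84 FPKM with HBS and 10.1 FPKM with PC-NVs. Its partners were Ccna2 (cyclin A2) at 12.4 and 10.7 FPKM, Ccnb1 (cyclin B1) at 12.5 and 11.1, and Ccnb2 (cyclin B2) at 7.90 and 7.30. Foxm1, the forkhead factor of the G2/M wave, was at 5.76 and 4.75 FPKM, an FPKM ratio of 0.824 (interval 0.701 to 0.966). Of these 5, 4 had a log2 ratio below 0, with a median of -0.16 over the 5, while Cdk1 had one of 0.03.

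The mitotic kinases and checkpoint genes went both ways. Plk1, a kinase of centrosome maturation and mitotic progression, was at 12.4 FPKM with HBS and 9.88 FPKM with PC-NVs, an FPKM ratio of 0.796 (interval 0.679 to 0.936). Aurka, the Aurora kinase of the spindle poles, was at 7.95 and 7.17 FPKM. Aurkb, the kinase of the chromosomal passenger complex, was at 6.85 and 7.38 FPKM, and its partner Birc5 (survivin) at 15.6 and 16.98 FPKM. Both passenger genes were thus on the upper side. Among spindle checkpoint genes, Bub1 was at 2.98 and 2.63 FPKM, Bub1b at 6.17 and 5.80, and Ttk at 2.46 and 2.72. The intervals of all of these except Plk1 held equal levels.

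Mitotic exit is driven by the anaphase-promoting complex. Its activator Cdc20, at chr4:118432901-118437352 on the minus strand, was at 20.4 FPKM with HBS and 13.9 FPKM with PC-NVs, a log2 ratio of -0.52 and an FPKM ratio of 0.682 (interval 0.589 to 0.788). It had the lowest ratio of the G2/M class and did not pass the threshold. Ube2c, the ubiquitin-conjugating enzyme of the same complex, was at 29.8 and 27.0 FPKM, the highest level of the class in both libraries.

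Spindle and kinetochore genes were low in level and, with Tpx2 as the exception, had log2 ratios below 0. Cenpf, a kinetochore protein with a very long transcript, was at 2.94 FPKM with HBS and 2.03 FPKM with PC-NVs, an FPKM ratio of 0.689 (interval 0.592 to 0.804) on about 437 and 263 fragments. Cenpe, a kinetochore motor, was at 3.51 and 3.31 FPKM. Kif11, the motor that separates the spindle poles, was at 5.22 and 4.92 FPKM, and Kif20a, a motor of cytokinesis, at 8.90 and 7.66 FPKM. The value of Cenpf stands apart from the other spindle genes, whose intervals held equal levels. Tpx2, a spindle assembly factor, was at 7.58 and 7.80 FPKM when its 5 rows were summed.

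The 2 members of chromosome structure differed. Mki67, the gene of the proliferation marker Ki-67, was at 10.03 FPKM with HBS and 8.69 FPKM with PC-NVs, an FPKM ratio of 0.867 (interval 0.799 to 0.940). Top2a, the topoisomerase that untangles chromosomes, was at 14.1 and 15.2 FPKM, an FPKM ratio of 1.07 (interval 0.981 to 1.17). These widely used markers of proliferation thus lay near equal levels, on either side. Summed over the class, G2/M members were at 205 FPKM with HBS and 187 FPKM with PC-NVs, a ratio of 0.910. The sum of the G1/S members was 445 and 425 FPKM, a ratio of 0.956 that turned to 1.10 without Ccnd1, at 303 and 334 FPKM. Summed over all genes, FPKM was itself higher with PC-NVs, at 521666 with HBS and 580717 with PC-NVs. The class sums were not scaled for this.

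In wider lists of the same waves, most replication genes lay above 0, and the share of mitotic genes below 0 was near that of all genes. These lists, too, were chosen with earlier results of these data known. Of 55 other replication and G1/S genes, 53 had a ratio, 42 of them above 0 and 11 below, with a median log2 ratio of 0.11, and 0 were called in either direction. The highest ratios were those of Cdc45 (0.46), which travels with the Mcm helicase, Gins1 (0.38) and Dtl (0.37). The lowest were Prim2, a primase subunit (-0.41), Rpa1 (-0.23) and Cdca7 (-0.22). Of 67 other G2/M genes, 66 had a ratio, 29 above 0 and 37 below (56.1%, against 51.6% of all genes, and 56.4% of all genes after quantile normalization), with a median of -0.05. Ncapd2, a condensin subunit, was the 1 gene called lower, at 14.3 and 9.08 FPKM (log2 ratio -0.60), and 0 were called higher. Among all genes, 5.33% were called higher and 3.57% lower. The next lowest were Aspm (-0.45) and Ect2 (-0.34), and the highest were Kif23 (0.41), Arhgap11a (0.33) and Sgol1 (0.30). The wider lists carried the promoter elements too, with a CHR element in 47 of 63 promoters of other G2/M genes (74.6%) and in 10 of 50 of other G1/S genes, and an E2F element in 18 of 50 promoters of other G1/S genes (36.0%) and in 5 of 63 of other G2/M genes.

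**Figure D4:**
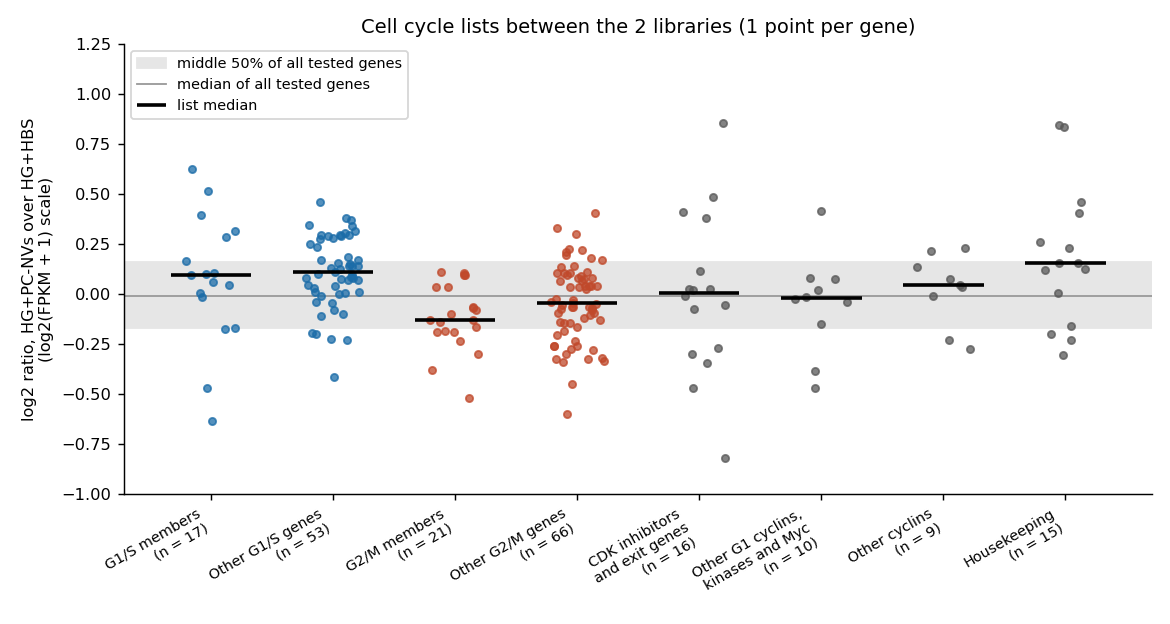
log2 ratio of HG+PC-NVs over HG+HBS (y axis, log2(FPKM + 1) scale) for each gene of the cell cycle lists and of the housekeeping list, with list medians as black bars; the grey band holds the middle 50% of all 11785 genes. The G1/S medians (0.09 and 0.11) lie above and the G2/M medians (-0.13 and -0.05) under the median of all genes, all inside the band, and the housekeeping median is 0.15.

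Genes that hold the cycle back include some of the most abundant of all the cell cycle genes here. Cdkn1a (p21), a p53 target, was at 349 FPKM with HBS and 355 FPKM with PC-NVs, above every cell cycle member in both. Cdkn2a, which encodes p16 and p19Arf, was at 215 and 155 FPKM, a log2 ratio of -0.47, and its neighbour Cdkn2b (p15) at 64.3 and 36.0 FPKM, a log2 ratio of -0.82 that was called lower. Both are inhibitors tied to Cdk4 and Cdk6, the partners of the D cyclins. Cdkn2c (p18) was at 14.2 and 18.8 FPKM and Cdkn2d (p19) at 12.0 and 12.2. Cdkn1b (p27) was at 8.75 and 8.69 FPKM and Cdkn1c (p57) at 5.32 and 4.24. Thus 1 of 7 inhibitors was called lower, against 3.57% of all genes, and they went both ways. Among the other exit genes, Btg1, an antiproliferative gene, was called higher at 23.4 and 43.2 FPKM (log2 ratio 0.85), Ccng2 had a log2 ratio of 0.48 and Btg2 one of 0.41, and Lin37, a subunit of DREAM, had one of -0.35. Over the 16 genes of this list, 8 were above and 8 below 0, and the median was 0.01.

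In the list of other G1 cyclins, kinases and Myc, 4 of 10 genes were above 0 and 0 were called, with a median of -0.02. Besides the D cyclins and Cdk2, given above, its outer members were Cdk6 (-0.15), Skp2 (0.08) and Cdc25a (0.08), the last of which is also counted among the G1/S genes. Cyclins that act mainly in transcription, splicing or signalling gave a median of 0.04 over 9 genes, from Ccnk (-0.28), Ccnt1 (-0.23) and Ccni (-0.01) to Ccnc (0.23), Ccnl1 (0.21) and Ccnh (0.14). The 15 housekeeping genes had a median log2 ratio of 0.15, above that of the G1/S members, with 11 above 0 and 4 below. Of these, 2 were called higher, B2m (0.84) and Pgk1 (0.85), named after their values were seen, and 0 were called lower. The shares over all genes were 5.33% higher and 3.57% lower.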

How the data were processed

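MCEC RNA was sequenced in 1 library per group, HG+HBS and HG+PC-NVs. The authors trimmed reads, aligned them with TopHat to mm10, counted reads (BEDTools), derived FPKM (Cufflinks) and normalized them in R (edgeR), a step described as quantile normalization; tool versions and the annotation are not given in the sources used here. The deposited values are log2(normalized FPKM + 1) for 33299 rows per library, the log2 scale being read from their range. Sorted values of the libraries were over 0.05 apart in 2318 rows, so their quantiles do not match. They were used as deposited (quantile normalization was an alternative), converted to FPKM and summed by symbol. Genes needed a mean log2 value of at least 1, the pseudocount was 1 FPKM, and a call needed a 1.5-fold difference. The members and gene lists were chosen with earlier results of these data known. All members are named; of each other cell cycle list, the 3 highest and 3 lowest ratios and every CDK inhibitor; every endothelial marker and the leading markers of other cell types.

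The worth of 1 fragment was the commonest low product of FPKM and length (kb) among 2150 genes having 1 annotated transcript longer than 1500 nt (0.0749 for HBS and 0.0859 for PC-NVs, with further peaks at whole multiples). Fragments per gene and their 95% Wilson intervals use the median length of RefSeq-matched GENCODE M21 transcripts, are approximate, and cover counting error only. The steps were tested on simulated data. Alternatives covered normalization, pseudocount, filter, rows, length and GC content, and the fold threshold. The software was matplotlib 3.10.9, scipy 1.17.1, pandas 2.3.3 and numpy 2.4.6 under Python 3.11.15.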

Additional observations from a re-analysis of the deposited data

How the results depend on the processing

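The class medians kept their signs under all 8 alternatives, at 0.05 to 0.11 for G1/S and -0.15 to -0.08 for G2/M. The difference between them stayed between -0.26 and -0.14. Removing the filter could not move the medians, since all 38 members had passed it, and median centring could not move their difference. Members with a log2 ratio below 0 numbered 19 to 21 where all 38 were kept, and 14 of 28 when the filter was a mean of 3. The count of members called higher, 1 in the report, was 2 with a pseudocount of 0.1 (Ccne2 and Cdc6), 0 with the filter at a mean of 3, since Ccne2 was then left out, and 0 after centring by length and GC content, where the 25 bin medians ran from -0.11 to 0.08. With the highest row of each symbol it was 1, but the gene was Tpx2 (0.62) in place of Ccne2. With a fold threshold of 2, 0 members were called higher and 0 lower. Ccnd1 was called lower in every setting at 1.5-fold, with a log2 ratio of -0.72 after quantile normalization between the libraries. Of 114 alternative ratios of single members, 112 moved by less than the half-width of the counting interval. That count includes the 27 members with a single row, whose ratio the highest-row setting could not change. The sign turned for Rrm1 after quantile normalization and for Bub1 with its highest row. No paired analysis was possible because each group is a single library, which also leaves no replicate to omit. Depth limits Ccne2, Cdc6, Ttk and Bub1 most.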

Other observations

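Of the 38 members, 11 are listed on more than 1 transcript row. In Tpx2, Bub1, Mcm5, Kif20a and Ttk, rows of the same symbol differed in opposite directions, while in Aurka, Birc5, Ccne2, E2f1 and Tyms all rows differed in the same direction. Cdc6 had a row that was nearly equal in both libraries and another that was higher with PC-NVs. Tpx2 had 5 rows, whose levels were 1.195, 2.11, 0.00127, 2.52 and 1.75 FPKM in HG+HBS and 1.54, 0.647, 1.202, 4.40 and 0.00285 FPKM in HG+PC-NVs, so that row differences ran from -1.46 to 1.14 on the log2 scale against 0.04 for the sum. Bub1 had a row at 0.846 FPKM in HG+HBS that was listed at 0 in HG+PC-NVs, while its other row was at 2.13 and 2.63 FPKM. Mcm5 had rows at 2.08 and 7.51 FPKM in HG+HBS and at 1.22 and 9.63 FPKM in HG+PC-NVs. Over the 27 members with a single row, the median log2 ratio was 0.05 for 12 G1/S members and -0.14 for 15 G2/M members. The rows carry no transcript names, so which isoforms they stand for is not known here.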
